A study of Homo sapiens with 24 samples.

Results

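DDX20, DHX9, DDX59 and MOV10 are 4 genes for RNA helicases, and they were described here across 24 samples of HEK293 cells, an established line from human embryonic kidney. They were taken as the rows of the deposited table whose gene symbol equals one of these names, which gave 4 of 11579 rows, 1 row per gene. All 4 genes lie on chromosome 1, where the row labels passed a check that the labels of most other chromosomes did not pass. DDX20 was selected on its measured values, since it differed strongly between H2O2-treated and untreated samples of this table. Its H2O2 values are therefore given as a description, with no test.

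RNA helicases use ATP to unwind RNA duplexes or to remodel complexes of RNA and protein. DDX20, also called Gemin3, is a DEAD-box helicase of the SMN complex, which loads the Sm proteins onto the small nuclear RNAs of the spliceosome. DHX9, also called RNA helicase A, unwinds double-stranded RNA and hybrids of RNA and DNA and acts in transcription. DDX59 is a DEAD-box protein that is less well described and whose inherited loss is linked to a developmental syndrome. MOV10 is a relative of the decay helicase UPF1 that associates with Argonaute proteins and restrains retroelements.

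The 8 groups held 3 samples each, 1 from each of 3 batches. Cells were untransfected or transiently transfected with empty vector (pCMV-flag), EVI1-WT (pCMV-EVI1-WT-flag) or EVI1-AQA (pCMV-EVI1-AQA-flag), and in each of these 4 states 1 group received no treatment and 1 received H2O2 at 150 μM over 8 h. EVI1 is a zinc finger transcription factor, here driven by a viral promoter in a kidney line after transient transfection, and in EVI1-AQA alanines replace both serines of a carboxy-terminal SQS motif. H2O2, an oxidant, was used as a genotoxic stress. No label says that the 3 samples of a group came from separate cultures, so p-values measure only the spread between these samples.

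The deposited values are log2 expression after the authors' normalization, from libraries that read the 3' ends of polyadenylated RNA. Every transcript has a mean of 0 within each batch of 8 samples, with a largest departure of 4.5e-06. A value of 0 is therefore the batch mean of that gene, and the table holds no absolute level. Levels of different genes, and markers of the cell line, could not be compared. The read depth is unknown, so no counting interval is given. Fewer cells and less RNA per cell cannot be told apart. In the row labelled CACNB3, 3 H2O2 libraries stood apart from their labels. This row lay between 2.62 and 4.91 in 10 EVI1-transfected samples and between -4.49 and -1.64 in 11 untransfected and empty vector samples, but at 4.36 in the empty vector sample of batch 2, at -4.38 in EVI1-WT of batch 2 and at -2.60 in EVI1-AQA of batch 1. The row was picked for this pattern. Values without these 3 libraries stand beside the fitted differences of the helicases, and the values of single samples and pairs include them. No row was identified as that of the transfected gene, and whether the row labelled CACNB3 holds it was not tested.

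The labels of the 4 rows were checked against the annotation first. On chromosome 1, 50.7% of 2061 protein-coding genes but only 2.39% of 3598 other annotated genes (non-coding genes and pseudogenes) occurred as row labels. On chromosome X these shares were 43.1% and 2.46%. On chromosomes 2 to 22 together, 19.3% of protein-coding genes and 16.4% of the others occurred, and the first share lay between 15.7% and 34.5% and the second between 11.6% and 19% on single chromosomes. Polyadenylated RNA comes mostly from protein-coding genes, so labels on chromosomes 2 to 22 were not read as gene identities here. Along chromosome 1 the share of protein-coding genes lay between 42.9% and 59.8% and that of the others between 1.66% and 3.10% in 5 successive parts. These parts are far longer than a gene, so they cannot show whether the labels break near any of the 4 helicases.

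**Figure D1:**
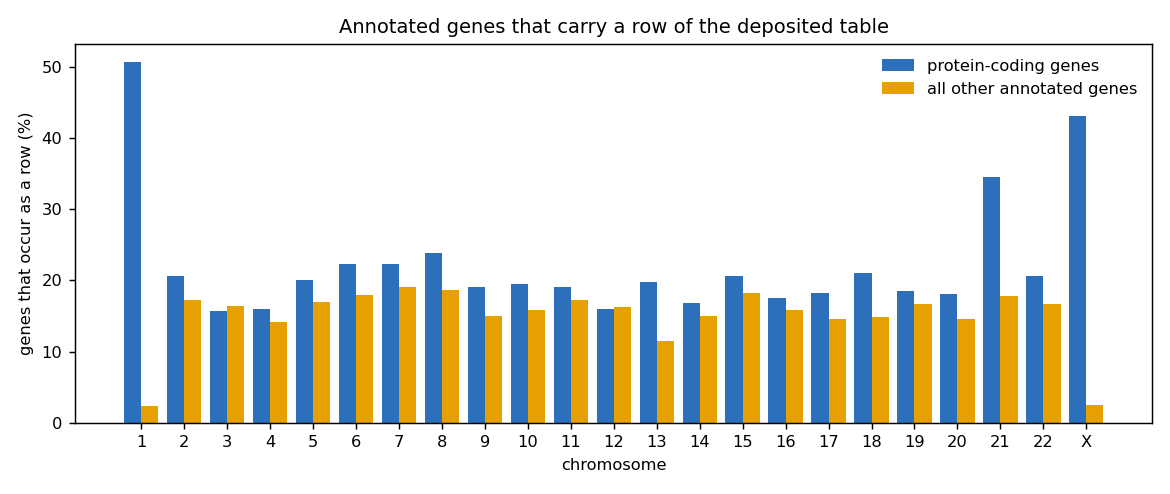
Share of annotated genes that occur as a row of the deposited table (y axis, %) on each chromosome (x axis), for protein-coding genes (blue bars) and for all other annotated genes (orange bars). Chromosomes 1 and X stand apart from the rest, with 50.7% against 2.39% on chromosome 1 and 43.1% against 2.46% on chromosome X.

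DDX20 (ENSG00000064703) lies at chr1:111754832-111775602 on the plus strand of GRCh38 in GENCODE v44. MOV10 (ENSG00000155363) lies nearby at chr1:112673141-112700756 on the plus strand, DHX9 (ENSG00000135829) at chr1:182839347-182887982 on the plus strand, and DDX59 (ENSG00000118197) at chr1:200623896-200669907 on the minus strand. Each overlaps genes on the opposite strand. DDX20 shares 993 bases with INKA2 and 706 bases with an unnamed non-coding gene at its start, and 4941 bases with KCND3 at its end. The RefSeq gene model of DDX20 runs from 111755901 to 111768000. It starts after INKA2 ends at 111755824 and the non-coding gene at 111755537, and it ends before KCND3 starts at 111770662. DHX9 shares 215 bases with DHX9-AS1, DDX59 shares 401 bases with DDX59-AS1, and MOV10 shares 2934 bases with another unnamed non-coding gene. None of these overlapping genes has a row of its own. The library kit keeps the strand of the RNA, but whether the authors' counting used it is not given in the sources used here. DDX20 and DHX9 also have pseudogenes, DDX20P1 on chromosome 10 and DHX9P1 on chromosome 13. Neither name occurs as a row label, but labels on these chromosomes were not read as gene identities. Whether reads from the pseudogenes are part of the DDX20 and DHX9 values was not tested.

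The windows from 250 bases before to 50 bases after the RefSeq start (GRCh38.p14) are shown for DDX20, the member with the H2O2 difference, and for MOV10, the member that differed most between transfection states. DDX20 is at chr1:111755651-111755950 and MOV10 at chr1:112674189-112674488, both on the plus strand. For MOV10 this is the first of 3 windows listed. Capitals mark matches on either strand to 6 motifs, and every match is a match of letters and nothing more.
DDX20: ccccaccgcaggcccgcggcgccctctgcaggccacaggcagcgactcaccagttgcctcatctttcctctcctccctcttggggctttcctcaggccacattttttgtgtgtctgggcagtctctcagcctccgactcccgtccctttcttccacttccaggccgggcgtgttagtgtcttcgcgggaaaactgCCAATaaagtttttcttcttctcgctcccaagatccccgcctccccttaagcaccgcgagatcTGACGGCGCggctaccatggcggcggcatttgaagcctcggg
MOV10: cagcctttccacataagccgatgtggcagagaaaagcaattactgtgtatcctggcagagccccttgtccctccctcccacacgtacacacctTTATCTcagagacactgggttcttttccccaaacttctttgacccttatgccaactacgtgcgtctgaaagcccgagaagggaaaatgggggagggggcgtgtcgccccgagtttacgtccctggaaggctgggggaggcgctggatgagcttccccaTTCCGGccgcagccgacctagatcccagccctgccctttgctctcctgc
The motifs searched on both strands were the antioxidant response element core (TGACNNNGC), the CCAAT box, the GC box (GGGCGG), the core of ETS family sites (CCGGAA), part of the site of the amino-terminal zinc fingers of EVI1 (AGATAA) and the site of its carboxy-terminal zinc fingers (GAAGATGAG). The DDX20 window held the antioxidant response element core once, at position 9 of the transcript, and the CCAAT box once, at -55. These motifs occurred in 13.3% and 34.6% of the 34796 windows of the same length. The MOV10 window held the reverse of the AGATAA motif at -157 and the reverse of the ETS core at position 2, motifs found in 10.4% and 17.2% of all windows. DHX9 and DDX59, whose windows are not shown, each held the GC box 4 times (44.9% of all windows). DHX9 also held the CCAAT box once. In DDX59 a single ETS core overlapped the last GC box by 2 bases, and it was the only overlap. The carboxy-terminal EVI1 site, found in 0.348% of all windows, was in none of the 4. DDX20 and MOV10 had no GC box, and their windows had 61% and 57.7% G and C, against 65.3% in DHX9 and 72% in DDX59.

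The first question was how H2O2 changed each helicase. DDX20 was higher with H2O2 in each of the 4 states and each of the 3 batches. DHX9 was higher in 11 of 12 same-batch pairs by a smaller amount that did not pass the adjusted threshold. DDX59 and MOV10 had no common direction.

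DDX20 in untreated samples was at -0.49, -0.18 and -0.21 in untransfected cells (batches 1, 2 and 3). It was at -0.26, -0.28 and -0.58 with empty vector. It was at -0.51, -0.63 and -0.56 with EVI1-WT. Apart from EVI1-AQA, all untreated samples lay below their batch mean. With EVI1-AQA, untreated DDX20 was at -0.21, -0.27 and 0.06, and the last was the highest untreated value. With H2O2, DDX20 was at 0.54, 0.27 and 0.09 in untransfected cells and at 0.29, 0.29 and 0.33 with empty vector. All H2O2 samples were above the batch mean. The EVI1-WT samples with H2O2 were at 0.28, 0.21 and 0.33, and the EVI1-AQA samples at 0.35, 0.59 and 0.54. The 12 treated and 12 untreated samples did not overlap, since the lowest treated sample (0.09, untransfected, batch 3) was above the highest untreated one (0.06). Such a separation occurred in 0.112% of all rows and a rise in all 12 same-batch pairs in 1.29%, and DDX20 was chosen for this contrast, so nothing is read from it.

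The mean DDX20 difference between H2O2 and untreated samples was 0.69 on the log2 scale (SE 0.0661), or 1.61-fold. The SE takes no account of the choice of DDX20 for this contrast, so no interval is given. By batch the mean difference was 0.73, 0.68 and 0.65. The difference was 0.59 in untransfected cells, 0.68 with empty vector, 0.84 with EVI1-WT and 0.63 with EVI1-AQA. Over the 12 same-batch pairs it lay between 0.31 (untransfected, batch 3) and 1.02 (untransfected, batch 1), so that the untransfected cells held both the smallest and the largest difference. Its place was 34 from the top of 11579 transcripts and 4 from the top of 1131 rows on chromosome 1, while the middle 95% of all transcripts lay between -0.42 and 0.42. Without the 3 libraries named above the mean was 0.71 (SE 0.0748), and the differences with empty vector, EVI1-WT and EVI1-AQA were 0.69, 0.87 and 0.70. Without batch 1 the difference in untransfected cells was 0.38.

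Whether the DDX20 difference changed with the transfection state was tested, because the choice of DDX20 did not rest on it. It was 0.09 larger with empty vector than in untransfected cells (95% interval -0.30 to 0.48; limma, adjusted p = 0.999) and 0.16 larger with EVI1-WT than with empty vector (-0.23 to 0.55; adjusted p = 1). It was 0.05 smaller with EVI1-AQA than with empty vector, a change of -0.05 (-0.44 to 0.34; adjusted p = 0.946). Between EVI1-AQA and EVI1-WT the change was -0.21 (-0.60 to 0.18; adjusted p = 0.744). None of the 4 changes passed the test, and the intervals allow changes of up to 0.60 in size. Without the 3 libraries they were 0.09, 0.19, 0.02 and -0.17, so the change between EVI1-AQA and empty vector turned its sign, and none passed (lowest adjusted p = 0.805).

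DHX9 with H2O2 had a mean difference of 0.17 (SE 0.0580, 95% interval 0.05 to 0.29), or 1.12-fold. Its adjusted p in limma was 0.0505, just above the threshold of 0.05, and with the batch as a block it was 0.0895. The difference was 0.16 (adjusted p = 0.114) without the 3 libraries. At this threshold 16.5% of all transcripts were called in this contrast, 12.3% with the block, and 31.1% had an unadjusted p under 0.05. Of the 3 helicases that could be tested, 0 passed the adjusted threshold in the mean contrast or in any of the 4 states. Of these 15 tests, 2 had an unadjusted limma p under 0.05, both in DHX9, for the mean and for untransfected cells. By state, the shares of all transcripts called were 0.389% in untransfected cells, 2% with empty vector, 0.475% with EVI1-WT and 2.02% with EVI1-AQA, and 15.4%, 17.5%, 14.7% and 17.7% had an unadjusted p under 0.05.

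By state, the DHX9 difference was 0.27 in untransfected cells (limma, adjusted p = 0.258), 0.23 with empty vector, 0.12 with EVI1-WT and 0.05 with EVI1-AQA. The last 3 were 0.24, 0.13 and 0.01 without the 3 libraries. Leaving out 1 batch at a time moved the difference with empty vector between 0.09 (without batch 1) and 0.31, and that with EVI1-WT between 0.06 (without batch 1) and 0.23 (without batch 3). In the untransfected samples DHX9 was at -0.07, 0.05 and -0.16 untreated and at 0.07, 0.29 and 0.28 with H2O2, with no overlap, as in 15.6% of all transcripts. In the other states both treatments overlapped. With empty vector it was at -0.30, -0.04 and -0.18 untreated and at 0.21, 0.02 and -0.07 with H2O2. With EVI1-AQA it was at 0.06, -0.10 and -0.01 untreated and at 0.12, -0.06 and 0.05 with H2O2. The 1 pair in which DHX9 was lower with H2O2 was EVI1-WT of batch 3, with a difference of -0.09.

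Within batches the mean DHX9 difference was 0.24, 0.14 and 0.13. An exact two-sided permutation test that flips the sign of the 12 same-batch differences gave p = 0.00293, not adjusted for the 3 helicases tested in this way, where the smallest p it can give is 0.000488. The test treats the 12 pairs as independent, although they come from only 3 batches, so its p can be too small and no call rests on it. H2O2 was above untreated in at least 11 of 12 pairs in 4.78% of all rows. Without the 3 libraries the mean over the remaining pairs was 0.19 (exact permutation p = 0.0156). The change of the DHX9 difference between EVI1-AQA and empty vector, -0.17 (95% interval -0.51 to 0.17), did not pass the test (limma, adjusted p = 0.684), nor did the -0.23 without the 3 libraries (adjusted p = 0.693).

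DDX59 with H2O2 had a mean difference of 0.04 (SE 0.0947, 95% interval -0.16 to 0.23; limma, adjusted p = 0.829), and 0.02 without the 3 libraries. Of its 12 pairs 7 were higher with H2O2, and they ran from -0.71 (untransfected, batch 3) to 0.56 (EVI1-AQA, batch 3). The exact permutation p over the 12 pairs was 0.751. By batch the mean difference was 0.10, 0.18 and -0.18, so batch 3 had the opposite sign. In batch 3 the untransfected, empty vector and EVI1-WT pairs were lower, by -0.71, -0.13 and -0.45. The EVI1-AQA pair of that batch was the highest of all. The DDX59 values themselves ran from -0.46 (EVI1-WT with H2O2, batch 3) to 0.66 (untransfected untreated, batch 3). The spread within groups, pooled over the 8 groups, was 0.238 (SD) for DDX59, against 0.113 for DHX9, 0.144 for DDX20 and 0.200 for MOV10. The median over all transcripts was 0.225, and only 3.53% of transcripts had a lower spread than DHX9.

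MOV10 with H2O2 had a mean difference of -0.01 (SE 0.0827, 95% interval -0.18 to 0.16; limma, adjusted p = 0.96), with 6 of 12 pairs higher. The exact permutation p was 0.941. By state it was -0.25 in untransfected cells, 0.24 with empty vector, -0.27 with EVI1-WT and 0.25 with EVI1-AQA, and 0 of these passed (limma, lowest adjusted p = 0.466). All 3 EVI1-WT pairs were lower and all 3 empty vector pairs higher. Without the 3 libraries the mean was 0.04, and the differences with empty vector, EVI1-WT and EVI1-AQA were 0.32, -0.26 and 0.35. Leaving out 1 batch at a time moved the difference in untransfected cells between -0.45 (without batch 2) and -0.04 (without batch 3). With empty vector it moved between 0.15 (without batch 3) and 0.34 (without batch 1). With EVI1-WT it moved between -0.39 (without batch 3) and -0.11 (without batch 2), and with EVI1-AQA between 0.14 (without batch 3) and 0.40 (without batch 1).

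**Figure D2:**
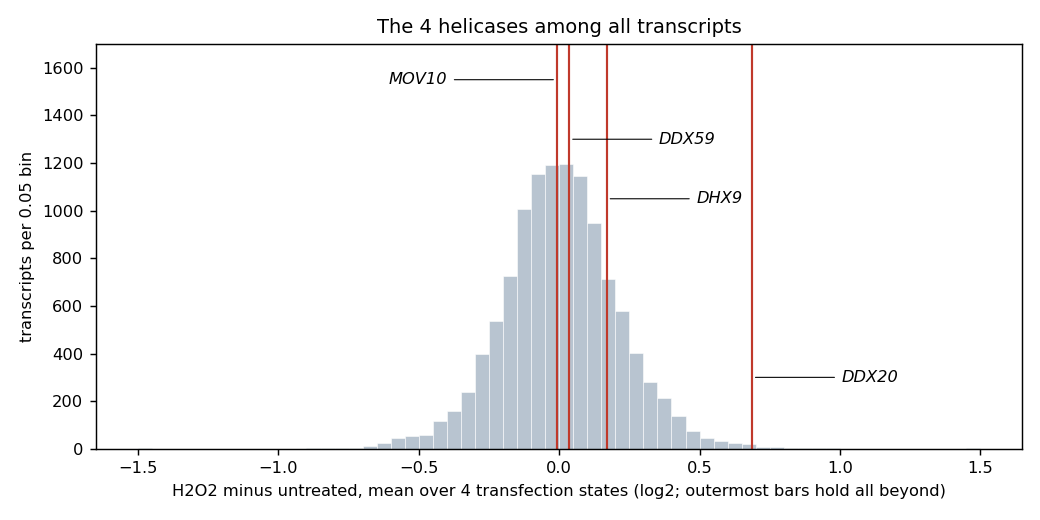
Number of transcripts (y axis, per bin of 0.05) by their mean difference between H2O2 and untreated samples (x axis, log2), with red lines at the 4 helicases. DDX20, chosen for this contrast, lies at 0.69 in the upper tail, DHX9 at 0.17, and DDX59 and MOV10 near the centre at 0.04 and -0.01.

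The second question was whether the helicases differed between transfection states. In 16 contrasts of each helicase (4 comparisons of states, each averaged over treatments, untreated, with H2O2, and as the change with H2O2), 0 of 64 passed limma's adjusted threshold, and 10 had an unadjusted p under 0.05, 7 of them in MOV10 and 3 in DDX20. With the batch as a block 6 of 64 were under 0.05, 4 in MOV10 and 2 in DDX20. Over all transcripts and the same 16 contrasts, 9.55% of the tests were under 0.05 before adjustment, and 7.48% once the block was added. The share of all transcripts called in the averaged contrasts was 2.28% between empty vector and untransfected cells, 0.0345% between EVI1-AQA and empty vector, and 0% in the other 2 contrasts. At an unadjusted p under 0.05 these shares were 20.8%, 9.89%, 8.19% (EVI1-WT against empty vector) and 5.39% (EVI1-AQA against EVI1-WT). In the same order (empty vector against untransfected, EVI1-AQA against empty vector, EVI1-WT against empty vector, EVI1-AQA against EVI1-WT), untreated cells had 0.147%, 0.0864%, 0% and 0% called and 14.7%, 14.9%, 7.09% and 4.77% at an unadjusted p under 0.05. With H2O2 these were 0%, 0.0173%, 0% and 0.0173% called and 11%, 9.15%, 4.67% and 10.5% unadjusted. For the change with H2O2 they were 0%, 0.406%, 0% and 0% called and 4.44%, 14.2%, 3.41% and 9.78% unadjusted.

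MOV10 was highest in untransfected cells and lowest with EVI1-WT and H2O2. Untreated, it was at 0.39, 0.19 and 0.83 in untransfected cells (batches 1, 2 and 3). With empty vector it was at 0.03, -0.33 and -0.19, and with EVI1-AQA at -0.08, -0.13 and -0.36. The untransfected samples were above all of these. With EVI1-WT, untreated MOV10 was at -0.13, 0.20 and -0.37, a wide range that reached into the untransfected one. With H2O2, MOV10 was at 0.16, 0.34 and 0.15 in untransfected cells and at 0.07, -0.09 and 0.24 with empty vector. These groups overlapped. With EVI1-WT and H2O2 it was at -0.31, -0.40 and -0.41, and with EVI1-AQA and H2O2 at -0.14, 0.21 and 0.11. All EVI1-WT samples with H2O2 were below all other samples with H2O2, as in 0.872% of all transcripts. That share counts only this group and this direction, which were taken from the MOV10 values, so nothing is read from it. The EVI1-WT sample of batch 2 is also a library that stood apart in the CACNB3 row. Of the 21 samples outside the EVI1-WT group with H2O2, 3 lay below its highest value, and all 3 were untreated and transfected.

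Across the 8 groups, MOV10 passed limma's F-test without a block (F = 5.10, adjusted p = 0.0198) and missed it with the batch as a block (adjusted p = 0.0526). The F-test called 18.4% of all transcripts without the block and 7.87% with it. The call was also lost without batch 1 (adjusted p = 0.133), without batch 2 (0.092) or without batch 3 (0.227), and it was kept without the 3 libraries (0.035). DHX9 (adjusted p = 0.219) and DDX59 (adjusted p = 0.599) did not pass. In order of group means MOV10 ran from -0.37 ± 0.0556 (SD, n = 3) with EVI1-WT and H2O2 to 0.47 ± 0.328 in untreated untransfected cells. Each group overlapped the next one in that order. The paper checked selected transcripts of its sequencing by real-time PCR and lists primers for MOV10. Those PCR values were not used here.

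MOV10 was lower with empty vector than in untransfected cells by a mean difference of -0.39 (SE 0.117, 95% interval -0.63 to -0.14), or 0.764-fold. Its adjusted p in limma was 0.0722, or 0.131 with the batch as a block, and without the 3 libraries the difference was -0.35 (adjusted p = 0.185). It was lower in all 3 batches, by -0.23, -0.47 and -0.46. In untreated cells the difference was -0.64 (limma, adjusted p = 0.115), with no overlap, as in 14.3% of all transcripts in that contrast. Without batch 3, which held the untransfected value of 0.83, it was -0.44. With H2O2 it was -0.14, or -0.06 without the 3 libraries, and the groups overlapped.

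With H2O2, MOV10 differed by -0.45 between EVI1-WT and empty vector (95% interval -0.79 to -0.10; limma, adjusted p = 0.998). It was higher by 0.43 with EVI1-AQA than with EVI1-WT (0.09 to 0.78; limma, adjusted p = 0.338). Neither pair of groups overlapped, as in 10.2% and 15.8% of all transcripts, and both directions held in all 3 batches. These samples include the libraries that stood apart in the CACNB3 row, empty vector and EVI1-WT of batch 2 and EVI1-AQA of batch 1. For the second difference only batch 3 was free of them. Without the 3 libraries the differences were -0.52 (SE 0.205) and 0.52 (SE 0.205). In untreated cells the same differences were 0.07 and -0.09. The changes of these differences with H2O2 were -0.51 (SE 0.234; limma, adjusted p = 1) and 0.52 (SE 0.234; limma, adjusted p = 0.479), and -0.58 and 0.61 without the 3 libraries.

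**Figure D3:**
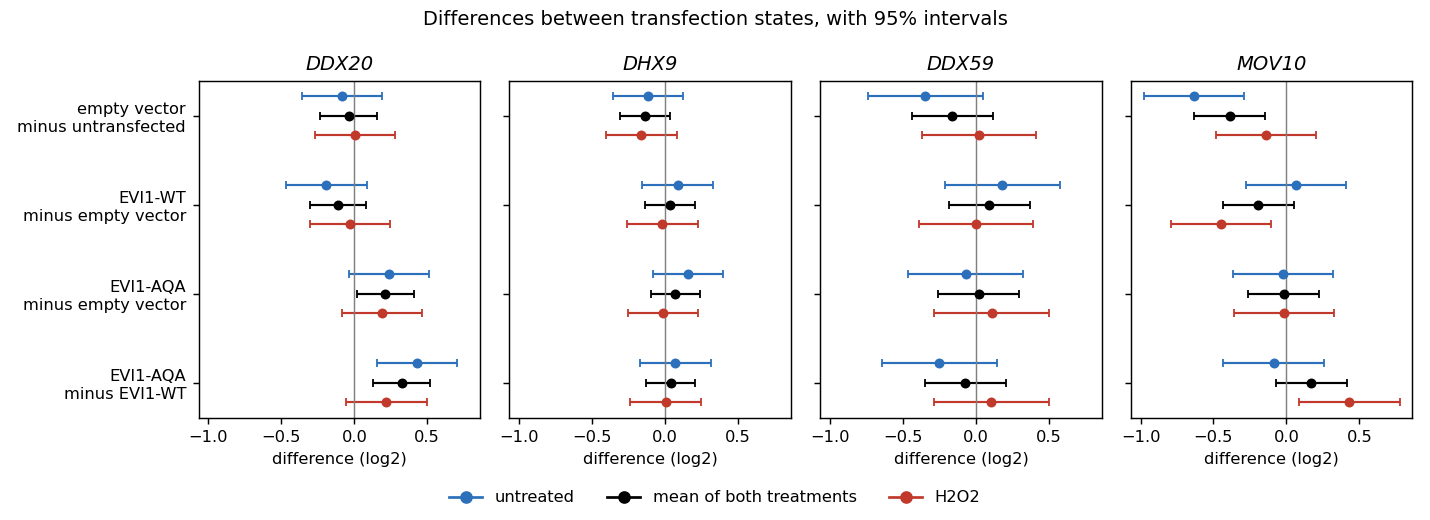
Differences between transfection states (x axis, log2) for the 4 helicases (panels) in 4 comparisons (y axis), untreated (blue), averaged over treatments (black) and with H2O2 (red); bars are 95% intervals of the limma fit without a batch block. Intervals that leave out 0 occur for DDX20 with EVI1-AQA and for MOV10, but no difference passed the adjusted threshold.

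DDX20 was higher with EVI1-AQA than with EVI1-WT by 0.32 averaged over treatments (SE 0.0935, 95% interval 0.13 to 0.52), or 1.25-fold. Its adjusted p in limma was 0.605. It was higher in all 3 batches, by 0.19, 0.37 and 0.41, and by 0.34 (SE 0.109) without the 3 libraries. In untreated cells the difference was 0.43 (limma, adjusted p = 0.867) and in H2O2-treated cells 0.22 (limma, adjusted p = 0.607), or 0.26 without the 3 libraries. The EVI1-AQA and EVI1-WT samples did not overlap in either treatment, as in 9.85% of all transcripts untreated and 15.8% with H2O2. Those with H2O2 include EVI1-AQA of batch 1 and EVI1-WT of batch 2, which stood apart in the CACNB3 row. Against empty vector, DDX20 was higher by 0.21 with EVI1-AQA (limma, adjusted p = 0.448), with differences of 0.06, 0.15 and 0.43 by batch. Without batch 3 the difference was 0.11, and without the 3 libraries it was 0.25. With H2O2 these groups did not overlap, as in 14.4% of all transcripts. With EVI1-WT the difference from empty vector was -0.11 (95% interval -0.31 to 0.08), or -0.10 without the 3 libraries, and 1 of 3 batches had the opposite sign. In order of group means, untreated EVI1-WT was the lowest (-0.57 ± 0.0591, SD, n = 3) and EVI1-AQA with H2O2 the highest (0.49 ± 0.124). Neighbouring groups overlapped in that order except untreated EVI1-AQA with EVI1-WT plus H2O2, and empty vector plus H2O2 with EVI1-AQA plus H2O2.

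DHX9 and DDX59 each had 0 of 16 contrasts between states under an unadjusted limma p of 0.05. For DHX9, the averaged difference was -0.14 (95% interval -0.31 to 0.03) between empty vector and untransfected cells, 0.03 (-0.14 to 0.20) between EVI1-WT and empty vector, and 0.07 (-0.10 to 0.24) between EVI1-AQA and empty vector. For DDX59 the same differences were -0.16 (-0.44 to 0.12), 0.09 (-0.19 to 0.37) and 0.02 (-0.26 to 0.30). These became -0.13, 0.03 and 0.04 for DHX9 and -0.18, 0.06 and 0.08 for DDX59 without the 3 libraries. In untreated cells the DDX59 samples with EVI1-WT lay above those with empty vector without overlap, as in 14% of all transcripts, with a difference of 0.18 (limma, adjusted p = 0.906). The DDX59 intervals were wider than those of DHX9, and both allow changes of more than 0.20 in at least 1 direction in each of these comparisons. In order of group means DHX9 ran from -0.17 ± 0.131 (SD, n = 3; empty vector untreated) to 0.21 ± 0.126 (untransfected with H2O2) and DDX59 from -0.20 ± 0.217 (EVI1-AQA untreated) to 0.21 ± 0.393 (untransfected untreated). All neighbouring groups overlapped in both.

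The partners of the helicases were described from lists chosen with earlier results of these data known. Of 26 other genes of the SMN complex and of snRNP assembly, 3 had a row on chromosome 1, and 0 were called with H2O2. Their mean H2O2 differences were 0.09 for LSM10 (SE 0.0832), a protein of the U7 particle, 0.05 for SNRPE (SE 0.0528), an Sm protein, and 0.02 for WDR77 (SE 0.0875), a subunit of the methyltransferase complex that modifies Sm proteins. Of these 3, 0 had an unadjusted limma p under 0.05, where 31.1% of all transcripts had one.

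Of 17 Argonaute and nonsense-mediated decay genes, 5 had a row on chromosome 1, among them the Argonautes AGO1, AGO3 and AGO4 and the decay factor SMG5. With H2O2 these 4 differed by -0.07, 0.02, 0.00 and -0.02, and of the 5 genes 0 were called or had an unadjusted limma p under 0.05. Between empty vector and untransfected cells, where MOV10 was at -0.39, the 4 were at -0.10, 0.02, -0.15 and -0.10, and 0 of the 5 had an unadjusted p under 0.05. Of 17 genes for proteins that bind double-stranded RNA or work with DHX9, 4 had a row on chromosome 1. ILF2, the smaller subunit of the dsRNA-binding complex NF45/NF90, rose with H2O2 by 0.27 (SE 0.0499; limma, adjusted p = 0.00124, with the batch as a block 0.00495) and by 0.28, 0.26 and 0.28 by batch. ADAR, an RNA-editing enzyme, was at -0.02, HNRNPU, a nuclear matrix and RNA-binding protein, at -0.07 and SFPQ, a splicing factor, at -0.17, and these 3 were not called. HNRNPU differed between empty vector and untransfected cells by -0.38 (limma, adjusted p = 0.0674) and ADAR by -0.19 (adjusted p = 0.196), the 2 of 12 with an unadjusted p under 0.05, where 20.8% of all transcripts had one. In all, 1 of these 12 genes was called with H2O2, where 16.5% of all transcripts and 17.7% of the rows of chromosome 1 were, and their median difference was 0.01 against 0.00 over all transcripts. Among 76 other RNA helicases 0 had a row on chromosome 1. Rows with their labels on other chromosomes numbered 18, of which 2 were called higher and 0 called lower with H2O2. Their median difference was -0.06, but those labels were not read as gene identities.

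The chromosome 1 rows most like each helicase were found by Pearson's r over the 24 samples among 1044 protein-coding rows, as a description. The samples share their batch centring and their treatments, which enter these r. For DDX20 they were PITHD1 (r = 0.857), TUFT1 (0.831) and DNTTIP2 (0.810), and for DHX9 they were YRDC (0.744), DEGS1 (0.737) and SNRNP40 (0.715), a protein of the U5 snRNP. For MOV10 they included NASP (0.798), a histone chaperone, and LRRC47 (0.788), and for DDX59 IPO13 (0.714), PIP5K1A (0.667) and TMEM57 (0.652). Between the helicases r was 0.511 for DDX20 and DHX9 and 0.460 for DDX59 and MOV10. Within groups, that is over deviations from group means, the first was -0.227, the second 0.371, and DHX9 and MOV10 were at -0.582. MOV10 and NASP kept an r of 0.846 within groups, while DDX20 and PITHD1 were at 0.503.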

How the data were processed

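Libraries of a 3' mRNA kit covered 8 groups of HEK293 cells, 3 per group. Per the paper and the submitters' processing notes, reads were aligned to GRCh38 (Ensembl 90), normalized in Qlucore Omics Explorer 3.3 and filtered at an FPKM of 10. The deposited values are log2 expression of 11579 transcripts, already normalized and centred on each batch of 8. The depth is unknown, so precision rests on 3 samples per group. How the counting used strand is not given in the sources used here. Every sample column was matched to its sample, and groups were taken from the labels.

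The members and gene lists were chosen with earlier results of these data known. Group means were fitted with limma 3.58.1 (R 4.3.3) to all 24 samples and all transcripts, two-sided, with Benjamini-Hochberg adjustment over all transcripts in each contrast. An adjusted p under 0.05 was the call. The batch number in the labels equals the replicate number and so pairs the samples. Same-numbered samples had a mean correlation of deviations of -0.140, which the centring fixes near -0.143, so it is no check. The fit with the batch as a block has 14 residual degrees of freedom, against 16 without it, since the centring had used 2. SEs and p-values without the block are therefore somewhat too small and the intervals somewhat too narrow. For the mean DHX9 difference with H2O2 the SE was 0.0580 without the block and 0.0638 with it. The script was tested on simulated data. Same-batch pairs were compared by an exact sign-flip permutation test, which treats pairs of the same batch as independent. Genes named were the 4 members, genes of the lists with rows on chromosome 1 and for each member the 3 rows of chromosome 1 most like it. Of these, 1 list gene and 1 row most like MOV10 are not reported here. CACNB3 was named outside this rule, after its values were seen. In the annotation (GENCODE v44), 10892 identifiers (94.1%) were found. Promoter windows came from RefSeq (GRCh38.p14), where all 4 members had a window. Python 3.11.15, pandas 2.3.3 and matplotlib 3.10.9 were used. Alternatives were a batch block, median centring, quantile normalization, leaving out each batch or 3 libraries, and a fit of own groups without moderation.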

Additional observations from a re-analysis of the deposited data

Results flagged for a closer look

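The MOV10 difference between transfection states changed with H2O2 at an unadjusted limma p under 0.05 in 3 of 4 contrasts. The change was 0.49 (SE 0.234) for empty vector against untransfected cells, -0.51 (SE 0.234) for EVI1-WT against empty vector and 0.52 (SE 0.234) for EVI1-AQA against EVI1-WT. With the batch as a block the unadjusted p was above 0.05 in all 3. The adjusted p was 0.999, 1 and 0.479, so none passed. The contrasts share groups, so they are not independent. By batch the changes were 0.27, 0.10 and 1.12, then -0.22, -0.85 and -0.48, and 0.12, 0.94 and 0.51. Without batch 3 the first was 0.18, and without batch 2 the third was 0.31, each over 1.5 times smaller. Without the 3 libraries whose CACNB3 row departed from their labels, they were 0.58, -0.58 and 0.61. Groups of 3 samples were not searched for outlying samples.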

How the results depend on the processing

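No adjusted call of a member was gained with the batch (replicate) block, and 1 was lost: the MOV10 F-test gave F = 4.43 with the block, against 5.10. It changed no other call, and lowered the tests between transfection states with an unadjusted p under 0.05 from 10 to 6 of 64. Leaving out a batch gave F from 2.62 to 5.51, none of them called. The DHX9 difference with H2O2 passed the adjusted threshold with quantile normalization (0.17, adjusted p = 0.0482) and in a fit of its own groups without moderation (0.17, adjusted p = 0.0213). Over all alternatives its adjusted p lay between 0.0213 and 0.309. The DDX20 difference with H2O2, for which DDX20 was chosen, ran from 0.66 to 0.72 on average over the alternatives. It was 0.90 in EVI1-WT cells with quantile normalization.

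Differences near 0 turned sign. The MOV10 difference with H2O2 was 0.018 with quantile normalization and 0.041 without the 3 libraries (0.035 over pairs). The DDX59 difference between EVI1-AQA and EVI1-WT was 0.024 without the 3 libraries. Leaving out 1 batch at a time moved the mean H2O2 difference of DDX59 between -0.039 and 0.14, also over pairs, and that of MOV10 between -0.035 and 0.040, also over pairs. DDX59 with H2O2 moved between -0.026 and 0.26 in empty vector cells and between -0.175 and 0.15 in EVI1-WT cells. For EVI1-WT against empty vector DHX9 moved between -0.032 and 0.085 and DDX59 between -0.016 and 0.22. For EVI1-AQA against empty vector DDX59 moved between -0.042 and 0.11 and MOV10 between -0.16 and 0.051. For EVI1-AQA against EVI1-WT DHX9 moved between -0.012 and 0.066 and DDX59 between -0.23 and 0.038. The cause was not tested.

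By Spearman correlation, 2 of the 3 nearest rows of DDX20, DDX59 and MOV10 and 1 of DHX9 were the same. Within groups 0 were the same for DDX20, DHX9 and DDX59 and 1 for MOV10. Between empty vector and untransfected cells 0 of 12 partner genes were called, and 2 of 12 had an unadjusted p under 0.05, as had 20.8% of all transcripts. The alternatives for the F-test and for pairs were chosen after seeing the data.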
